A study of Mus musculus with 24 samples.

Results

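The JNK pathway genes described here are 9 kinases and kinase partners, chosen by name and not by their values. Earlier results of these data were known when they were chosen. They are the JNK kinases Mapk8, Mapk9 and Mapk10, the kinases above them Map2k4, Map2k7, Map3k1, Map3k5 and Map3k7, and the scaffold Mapk8ip3. The brightest probe set of each symbol stood for the gene. Of these 9 genes 8 had a probe set with their symbol, among 18820 gene symbols on the array. Map2k7, the second kinase that directly activates JNK, had none and was not analysed here.

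Liver RNA of male mice on a C57/BL6 background was hybridised to 24 arrays, in 8 groups of 3 samples, each taken here as 1 liver. Control mice had the genotype JNK1f/f, with Jnk1 alleles flanked by recombination sites, and were studied after a sham operation or after bile duct ligation, which blocks bile flow. JNK1-/- mice, obtained from a commercial supplier and lacking Jnk1 in every cell, and JNK1Δhepa mice, in which a Cre transgene under an albumin promoter that becomes active after birth deletes the floxed alleles in hepatocytes, were studied after ligation. Every group was taken at 48 h, at a labelled age of 8 weeks, and at 28 d, at 12 weeks. The mutants had no sham group, so their own response to ligation could not be measured. The labels number the livers of a group without saying whether they share a litter or an operation day, and p-values measure the spread between these livers.

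JNK is the last step of a stress kinase cascade. MAP3 kinases such as MEKK1, ASK1 and TAK1 respond to cytokine receptors, oxidative stress and endotoxin and phosphorylate the MAP2 kinases MKK4 and MKK7, which in turn phosphorylate JNK1, JNK2 and JNK3, while scaffolds hold the kinases together. JNK then phosphorylates Jun and other AP-1 factors, and in liver it is known for its part in hepatocyte death, regeneration and scarring. These steps run by phosphorylation, which an array of RNA does not measure.

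Values are log2 intensities, so a difference of 1 is a 2-fold change. Differences were tested with limma in 1 model over the 24 arrays, and a gene was called at a Benjamini-Hochberg adjusted p under 0.05 over all 18820 genes. The median SE of a difference between 2 groups was 0.129 and that of an interaction 0.183. The tissue label was checked on defining hepatocyte markers: Alb had a mean log2 intensity of 13.34 and Hnf4a a mean of 12.00. The mean of the 11 hepatocyte markers per array ran from 12.50 to 12.78 over the 24 livers. In whole liver, fewer cells of a type and less RNA per cell cannot be told apart.

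Mapk8, on chromosome 14, encodes JNK1 and was the deleted gene. After 48 h of ligation its log2 intensity was 7.47, 7.49 and 7.37 in control livers, 6.77, 6.81 and 6.76 in JNK1Δhepa livers and 5.33, 6.17 and 6.09 in JNK1-/- livers. The 3 genotypes did not overlap, with the hepatocyte mutant between the other two. After 28 d of ligation it was 7.67, 7.41 and 7.44 in control, 7.67, 6.90 and 6.97 in JNK1Δhepa and 6.11, 5.18 and 5.61 in JNK1-/- livers. The library labelled JNK1Δhepa 28 d replicate 1 thus read at the control level, and the other two JNK1Δhepa livers of that time lay below every control.

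**Figure D1:**
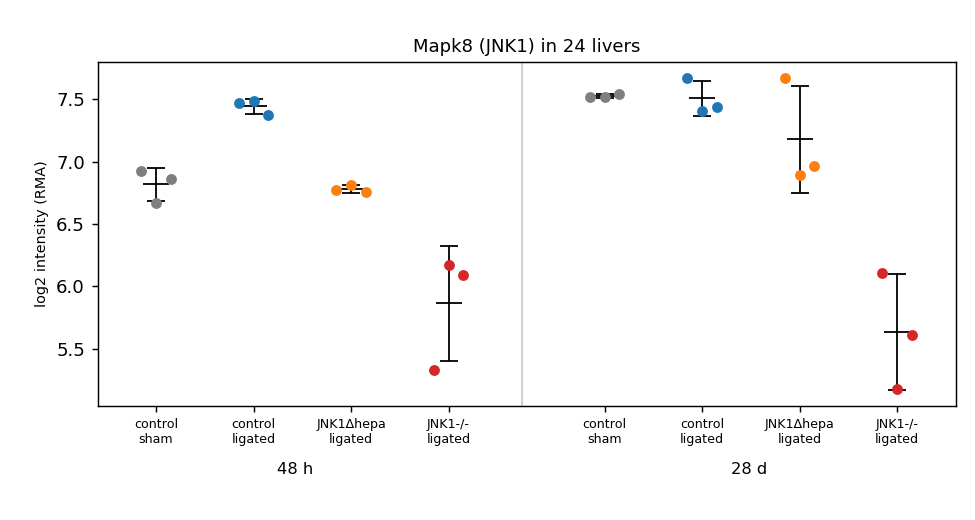
Log2 intensity of Mapk8 (vertical axis) in each of 24 livers, by genotype, surgery and time (horizontal axis); points are single livers and bars the mean and SD of 3. The 6 JNK1-/- livers lie at 6.17 or lower, the libraries labelled control sham 48 h lie beside the JNK1Δhepa livers of 48 h, and the library labelled JNK1Δhepa 28 d replicate 1 reads 7.67.

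The sham arrays also differed in Mapk8. At 28 d sham livers read 7.52, 7.52 and 7.54, within the range of ligated control livers. The 3 libraries labelled control sham 48 h read 6.93, 6.67 and 6.86, lower than each of the 9 other control arrays, whose range was 7.37 to 7.67. The range of the 6 JNK1Δhepa arrays, 6.76 to 7.67, held replicates 1 and 3 of that sham group. The readings of the 3 libraries labelled control sham 48 h and of the library labelled JNK1Δhepa 28 d replicate 1 thus differ from those of the other arrays of their labelled genotype. Whether labels or samples were exchanged was not tested and is not settled by the files, so values of these libraries hold for them as labelled. Members' differences with ligation at 48 h are given also against the sham livers of 28 d.

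Expressed on the linear scale, with the mean of JNK1-/- livers at 0% and the mean of ligated control livers of the same time at 100%, the JNK1Δhepa livers of 48 h lay at 43.6% ± 1.9 (SD, n = 3). Those of 28 d lay at 116.0%, 51.8% and 56.4%. The libraries labelled control sham 48 h lay at 53.9%, 36.6% and 49.2%, and sham livers of 28 d at 101.5% ± 1.3 (SD, n = 3). These percentages place a reading between both anchors. They are not shares of cells, and the position of the probes relative to the deleted part of Mapk8 is not given in the sources used here.

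In JNK1-/- liver Mapk8 was 2.98-fold lower than in control at 48 h (log2 difference -1.58, SE 0.22, limma adjusted p = 0.00057) and 3.66-fold lower at 28 d (-1.87, SE 0.22, adjusted p = 0.000102). The JNK1-/- groups varied most among themselves, with an SD of 0.46 at either time against 0.01 in sham livers of 28 d. A fit to only the compared groups lost the 28 d call (adjusted p = 0.144, where 1 gene in all was called), and over all alternatives the adjusted p ran from 5.11e-05 to 0.144. In JNK1Δhepa liver Mapk8 differed from control by -0.66 at 48 h (SE 0.22, 95% interval -1.12 to -0.21), and the groups did not overlap. That value missed the threshold at adjusted p = 0.9995, where no gene at all was called, and the lowest adjusted p over its alternatives was 0.217. Its SE rests on the spread within all 8 groups, an SD of 0.29. The compared groups had SDs of 0.03 (JNK1Δhepa) and 0.06 (control). At 28 d the difference was -0.33 (SE 0.22, adjusted p = 0.513), and without the library labelled JNK1Δhepa 28 d replicate 1 it was -0.57 (adjusted p = 0.298, with 0.298 to 0.806 over its alternatives).

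Between the mutants, Mapk8 was lower in JNK1-/- than in JNK1Δhepa liver by -0.91 at 48 h (SE 0.22, adjusted p = 0.0297) and by -1.54 at 28 d (SE 0.22, adjusted p = 0.00114; -1.30 and adjusted p = 0.0104 without the library labelled JNK1Δhepa 28 d replicate 1). In each case it was the 1 member of 8 called, where 2.44% and 0.962% of all genes were called. The ranges of 1 member were apart at 48 h and of 2 at 28 d, where 22.2% and 26.4% of all genes were. The 48 h call was lost without JNK1-/- replicate 1 (-0.65), without any 1 of the JNK1Δhepa replicates, without the libraries labelled control sham 48 h and in a fit to the compared groups, with adjusted p = 0.0202 to 0.143 over its alternatives. At 28 d a fit to the compared groups gave an adjusted p of 0.0548 and no call, and the alternatives ran from 0.000381 to 0.0548.

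Ligation in control liver gave Mapk8 a log2 difference of 0.62 at 48 h (SE 0.22, adjusted p = 0.0778), with the ligated livers above all 3 sham arrays. Set against the sham livers of 28 d it was -0.08. At 28 d the difference was -0.02 (95% interval -0.47 to 0.43), and 0.69 against the sham arrays of 48 h. In a fit to the compared groups Mapk8 was called at 48 h (adjusted p = 0.00433, and 0.00433 to 0.877 over its alternatives). The values of Mapk8 after ligation thus follow which sham group they are set against.

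Mapk9 encodes JNK2, the other JNK made throughout the body, and lies on chromosome 11. Its 24 readings ran from 8.82 to 9.24, and its 8 group means spanned 0.26 with a within-group SD of 0.08. In JNK1-/- liver it read 8.82, 8.93 and 8.95 at 48 h, against 9.06, 8.95 and 8.94 in ligated control. At 28 d it read 9.16, 8.97 and 9.14 against 9.03, 8.89 and 8.90. The differences were -0.08 (95% interval -0.25 to 0.08, limma adjusted p = 0.700) and 0.15 (-0.01 to 0.32, adjusted p = 0.445), and the groups overlapped at both times.

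In JNK1Δhepa livers of 28 d Mapk9 read 9.17, 9.24 and 9.07, above all 3 control livers. The difference of 0.22 (SE 0.08, 95% interval 0.06 to 0.39) missed the threshold at adjusted p = 0.197, and it was also 0.22 without the library labelled JNK1Δhepa 28 d replicate 1 (adjusted p = 0.355). At 48 h it was 0.01 (-0.15 to 0.18). Ligation in control liver gave Mapk9 differences of 0.02 (-0.14 to 0.18) at 48 h, or -0.06 against the sham livers of 28 d, and of -0.10 (-0.27 to 0.06) at 28 d. From 48 h to 28 d after ligation it differed by 0.19 in JNK1-/- liver (adjusted p = 0.213) and by 0.16 in JNK1Δhepa liver (adjusted p = 0.165), against -0.04 in control. The changes of both mutant differences over time, 0.24 (SE 0.11, adjusted p = 0.327) and 0.21 (adjusted p = 0.724), missed the threshold.

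Mapk10 encodes JNK3, known mainly from brain, heart and testis, and lies on chromosome 5. Its brighter probe set read between 2.96 and 3.42 on all 24 arrays, and its dimmer one between 2.73 and 3.11. The deposited values carry no detection call. Every neighbouring pair of groups in the order of means overlapped, and its differences in the 6 comparisons of ligation and genotype lay between -0.14 and -0.01, with none called. Against the sham livers of 28 d, its 48 h ligation difference was -0.04. The 7 neural and glial markers had mean log2 intensities from 3.38 (Nefl) to 6.55 (Syt1), and their part in the Mapk10 signal was not tested.

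**Figure D2:**
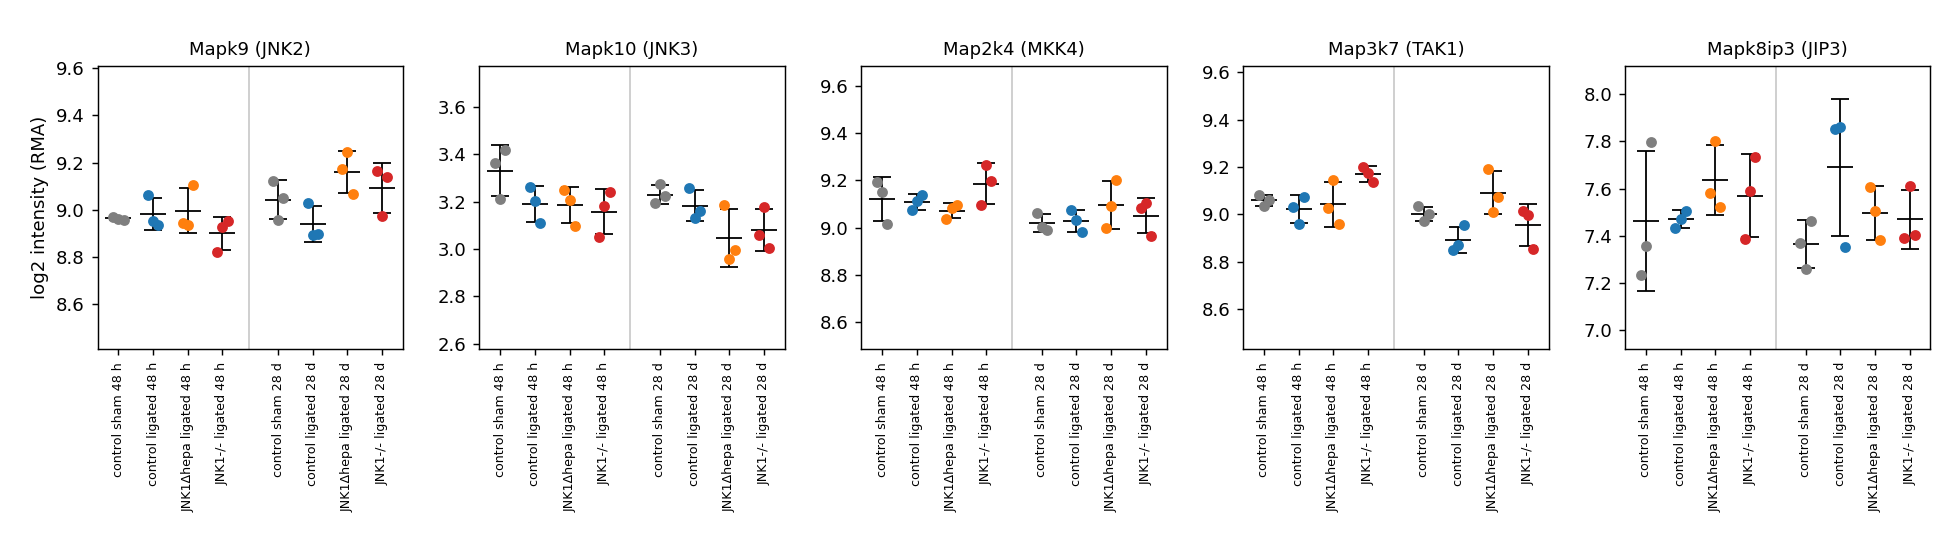
Log2 intensity (vertical axes, each 1.2 units high) of Mapk9, Mapk10, Map2k4, Map3k7 and Mapk8ip3 in 24 livers by group (horizontal axes); points are livers and bars the mean and SD of 3. Group means span 0.17 for Map2k4 to 0.32 for Mapk8ip3, and most groups overlap.

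Map2k4 encodes MKK4, 1 of the pair of kinases that phosphorylate JNK, and had the smallest span of group means among the members. Its 24 readings ran from 8.96 to 9.27 and the group means spanned 0.17, with a within-group SD of 0.07. Ligation gave differences of -0.01 at 48 h (95% interval -0.16 to 0.14), or 0.09 against the sham livers of 28 d, and of 0.01 at 28 d (-0.14 to 0.16). In JNK1-/- liver the differences were 0.08 (-0.08 to 0.23) and 0.02 (-0.13 to 0.17), and in JNK1Δhepa liver -0.04 and 0.07. Ligated control livers of 28 d, at 9.07, 9.03 and 8.98, lay just below those of 48 h, at 9.07, 9.11 and 9.14, by a difference of -0.08 (adjusted p = 0.557). None of its 15 differences was called.

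Map3k1, on chromosome 13, encodes MEKK1, a MAP3 kinase that activates MKK4 and MKK7. It was the 1 member whose RNA rose with ligation. At 48 h it read 7.17, 7.04 and 7.31 in the libraries labelled control sham 48 h and 8.48, 8.77 and 8.58 in ligated control livers. At 28 d it read 7.34, 7.65 and 7.15 in sham and 8.24, 8.10 and 8.32 in ligated livers. The groups were apart at both times. The rise was 2.70-fold at 48 h (log2 difference 1.44, SE 0.15, limma adjusted p = 8.77e-06) and 1.79-fold at 28 d (0.84, SE 0.15, adjusted p = 0.000315).

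At 48 h Map3k1 was thus the 1 called among 8 members where 9.43% of all genes were called, and at 28 d again 1 of 8 where 23.2% were. Either share of members is close to or below the background. The rise was called under all 13 alternatives at 48 h (adjusted p = 7.17e-06 to 0.00021) and all 14 at 28 d (3.34e-05 to 0.0189). Set against the sham livers of the other time it was 1.23 at 48 h and 1.05 at 28 d. The effect of ligation at 28 d minus that at 48 h was -0.60 (SE 0.21), which missed the threshold at adjusted p = 0.173. No member was called in this interaction by limma, 3 had an unadjusted p under 0.05, and 1.3% of all genes were called.

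Markers of other cells moved with ligation too. At 48 h 5 of 7 neutrophil markers rose, and the mean of that list went from 4.72 to 4.88 in sham to 5.13 to 6.80 in ligated livers. Of 6 cholangiocyte markers 2 rose, with list means of 4.85 to 5.04 and 5.78 to 6.61. In sham livers of 28 d the cholangiocyte list means were 4.93 to 5.99, which overlaps these ligated livers. The neutrophil list means of that sham group, 4.10 to 4.35, lay below them. At 48 h macrophage (8.41 to 8.55 in sham, 8.76 to 8.85 in ligated livers) and stellate cell list means (6.39 to 6.48, 6.74 to 7.25) were also apart and higher. Hepatocyte (12.68 to 12.71, 12.56 to 12.62), endothelial (8.87 to 8.98, 8.58 to 8.85) and neural list means (4.413 to 4.467, 4.303 to 4.408) were apart and lower. Against sham livers of 28 d the endothelial and neural list means overlapped. At 28 d 7 of 11 macrophage markers rose, from 7.92 to 8.37 up to 8.90 to 9.19, as did 5 of 7 neutrophil, 3 of 5 mesothelial, 3 of 11 stellate cell and 1 of 6 cholangiocyte markers. Neutrophil list means were also apart, at 4.10 to 4.35 in sham and 5.33 to 6.09 in ligated livers. Stellate cell list means overlapped, at 6.54 to 6.68 and 6.53 to 8.67. So did mesothelial (5.23 to 5.67 and 5.66 to 7.64) and cholangiocyte list means (4.93 to 5.99 and 5.42 to 8.07). At that time 3 of 8 endothelial, 3 of 11 hepatocyte and 1 of 7 lymphocyte markers fell. These counts stand beside the 9.43% and 23.2% of all genes called at 48 h and 28 d. Their part in the rise of Map3k1 was not tested.

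**Figure D3:**
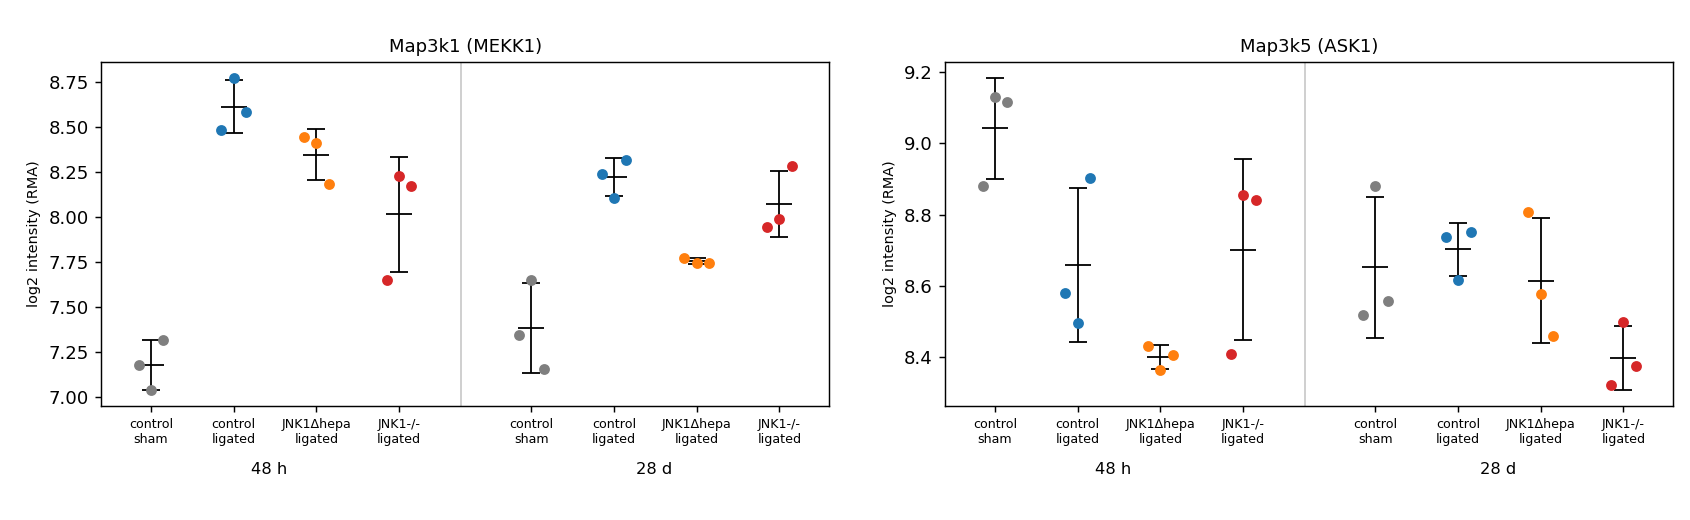
Log2 intensity (vertical axes, different ranges) of Map3k1 and Map3k5 in 24 livers by group (horizontal axes); points are livers and bars the mean and SD of 3. Map3k1 is higher in ligated than in sham control livers at both times, and its highest group is control ligated 48 h; Map3k5 is highest in the libraries labelled control sham 48 h.

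Between genotypes, Map3k1 was called in 1 of 4 comparisons of a mutant with control, JNK1-/- liver at 48 h, where it was lower. At 48 h JNK1-/- livers read 7.65, 8.22 and 8.17, all below ligated control, with a difference of -0.60 (SE 0.15, adjusted p = 0.0337). Mapk8 and Map3k1 were the 2 of 8 members called there, where 2.3% of all genes were called. Mapk8 is the deleted gene. The Map3k1 call was lost without JNK1-/- replicate 1 (-0.41), without any 1 of the 3 control replicates, in a fit to the compared groups and without the libraries labelled control sham 48 h, with adjusted p = 0.0225 to 0.178 over its alternatives. In the same comparison the hepatocyte list mean was 12.75 to 12.78 in JNK1-/- and 12.56 to 12.62 in control livers. The lymphocyte list mean was 3.98 to 4.11 in JNK1-/- and 4.34 to 4.55 in control livers. Of these markers 1 of 11 hepatocyte and 1 of 7 lymphocyte markers were called. The part of these markers was not tested.

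At 28 d JNK1-/- livers read 7.95, 7.98 and 8.28 for Map3k1 and overlapped control, with a difference of -0.15 (95% interval -0.45 to 0.15). Mapk8 was then the 1 member of 8 called, where 0.627% of all genes were called. The JNK1-/- difference in Map3k1 changed between the times by 0.45 (SE 0.21, adjusted p = 0.314), so a difference between the times was not shown. No member was called in that interaction by limma, 2 had an unadjusted p under 0.05, and 0.744% of all genes were called.

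JNK1Δhepa livers read 8.44, 8.41 and 8.18 at 48 h and 7.77, 7.74 and 7.74 at 28 d, below the control livers of their time without overlap. The differences were -0.27 (SE 0.15, adjusted p = 0.9995) and -0.47 (SE 0.15, 95% interval -0.77 to -0.16, adjusted p = 0.147), so neither was called. Without the library labelled JNK1Δhepa 28 d replicate 1 the later one was -0.48 (adjusted p = 0.274). Both mutant comparisons of a time share the same 3 control livers. Set against each other, JNK1-/- and JNK1Δhepa livers differed in Map3k1 by -0.33 at 48 h (adjusted p = 0.267) and by 0.32 at 28 d (adjusted p = 0.269). In that second case the groups were apart, with JNK1-/- higher.

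Over time after ligation, Map3k1 fell in JNK1Δhepa liver by 0.59 on the log2 scale from 48 h to 28 d (SE 0.15, limma adjusted p = 0.00788), and this held under all 13 alternatives. It was the 1 member of 8 called there, where 18% of all genes were called. The labelled age was 8 weeks at 48 h and 12 weeks at 28 d, so time after ligation and age cannot be told apart here. In control liver the difference was -0.39 (adjusted p = 0.0924; 0.0358 and called with each array centred on its median, 0.0358 to 0.283 over its alternatives), without overlap of the groups, and in JNK1-/- liver 0.06 (95% interval -0.25 to 0.36). In these last comparisons no member was called by limma, with 1 and 3 members at an unadjusted p under 0.05, where 10.4% and 2.84% of all genes were called. The ranges of 3 members were apart between the times in control liver, 2 in JNK1-/- and 3 in JNK1Δhepa liver, where 23.5%, 21.6% and 38.8% of all genes were. The change of the JNK1Δhepa difference from control with time was -0.20 for Map3k1 (adjusted p = 0.851). In that interaction limma called no member and no gene at all, and 0 members had an unadjusted p under 0.05.

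In the order of its group means, Map3k1 stood highest in ligated control of 48 h, apart from JNK1Δhepa 48 h next to it. The ranges of the next 5 groups in the order, all of them ligated, overlapped from neighbour to neighbour. JNK1Δhepa 28 d, the lowest ligated group, lay apart from sham 28 d below it, and both sham groups overlapped. All 3 livers of each ligated group thus read above the arrays labelled sham of the same time.

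The sequence before the RefSeq start of Map3k1 is shown because its RNA changed most among the members that were not deleted. The 250 bases upstream lie at chr13:111808994-111809243 on the minus strand of GRCm38.p6, inside the full extent annotated for the gene. CpG dinucleotides are in capitals.
Map3k1: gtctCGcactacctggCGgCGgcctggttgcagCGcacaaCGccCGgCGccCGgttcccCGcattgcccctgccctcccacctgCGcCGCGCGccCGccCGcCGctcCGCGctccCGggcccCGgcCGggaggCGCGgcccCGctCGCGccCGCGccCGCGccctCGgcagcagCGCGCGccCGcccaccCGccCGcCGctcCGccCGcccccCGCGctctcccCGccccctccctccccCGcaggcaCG
This window holds 45 CpG and is 85.2% G or C, and 99.6% of 32851 RefSeq windows of the same length hold fewer CpG. It has no match to the AP-1 letters TGANTCA on either strand, which 6.75% of all windows hold, nor to the CRE letters TGACGTCA (1.55%) or the TATA letters TATAAA (12.4%). Among 13 windows of the 9 genes, AP-1 letters were found in 1 (Map2k7), CRE letters in 1 (Mapk10) and TATA letters in 2 (Map2k7 and Mapk10). These are letters in a short window and say nothing of binding.

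Map3k5, on chromosome 10, encodes ASK1, a MAP3 kinase held inactive by thioredoxin until oxidation releases it. It read 8.88, 9.13 and 9.12 in the libraries labelled control sham 48 h, and 8.58, 8.49 and 8.90 after 48 h of ligation. At 28 d sham livers read 8.52, 8.88 and 8.56 and ligated livers 8.74, 8.62 and 8.75. The ligation difference was -0.38 at 48 h (SE 0.13, adjusted p = 0.0739), 0.01 against the sham livers of 28 d, and -0.51 without ligated replicate 3, where it was called (adjusted p = 0.0338, and 0.0338 to 0.988 over its alternatives). At 28 d it was 0.05 (95% interval -0.23 to 0.33). As with Mapk8, the 48 h value rests on the sham group used.

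JNK1Δhepa livers of 48 h read 8.43, 8.36 and 8.40 for Map3k5, below all control livers (-0.26, SE 0.13, adjusted p = 0.9995). JNK1-/- livers of 28 d read 8.32, 8.50 and 8.37, likewise below all controls (-0.30, SE 0.13, adjusted p = 0.345). The JNK1-/- livers of 48 h were split, at 8.41, 8.86 and 8.84. No genotype difference of Map3k5 was called.

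Map3k7 encodes TAK1, the kinase through which TNF, IL-1 and endotoxin receptors reach both JNK and NF-kB, and lies on chromosome 4. Its readings ran from 8.85 to 9.20. JNK1-/- livers of 48 h, at 9.20, 9.17 and 9.14, lay above ligated control, at 9.03, 8.96 and 9.07, by 0.15 (SE 0.07, adjusted p = 0.323). JNK1Δhepa livers of 28 d, at 9.19, 9.01 and 9.07, lay above control, at 8.85, 8.87 and 8.95, by 0.20 (SE 0.07, 95% interval 0.05 to 0.35, adjusted p = 0.199), and by 0.15 without the library labelled JNK1Δhepa 28 d replicate 1 (adjusted p = 0.449). Ligation at 48 h gave -0.04, or 0.02 against the sham livers of 28 d. After 28 d of ligation control livers lay below all sham livers, with a difference of -0.11 (SE 0.07, adjusted p = 0.286). This difference was called, at -0.21, when each array was centred on its median (adjusted p = 0.0358, and 0.0358 to 0.507 over its alternatives).

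Mapk8ip3 encodes JIP3, a scaffold that holds JNK and its upstream kinases and links them to kinesin transport, and lies on chromosome 17. Control livers ligated for 28 d read 7.85, 7.86 and 7.35 against 7.37, 7.26 and 7.46 after sham. The highest 2 ligated livers lay above all sham livers and the third within them. The difference was 0.32 (SE 0.14, adjusted p = 0.114), and without ligated replicate 3 it was 0.49 and called (adjusted p = 0.0152, and 0.0152 to 0.307 over its alternatives). Its dimmer probe set read 4.91, 4.66 and 4.14 in the same ligated livers. At 48 h the difference was 0.01 (95% interval -0.29 to 0.31), or 0.11 against the sham livers of 28 d, and in the mutants the differences lay between -0.22 and 0.16, none called.

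**Figure D4:**
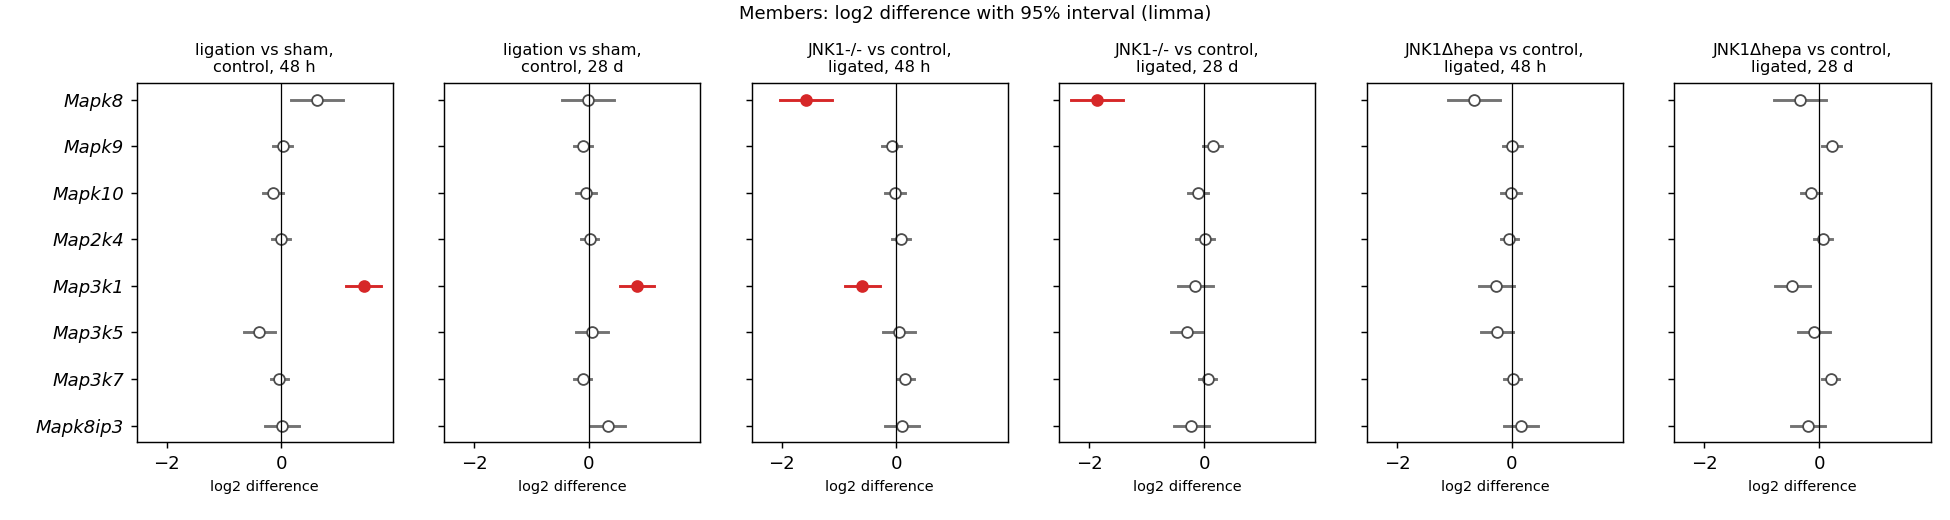
Log2 difference with its 95% interval (horizontal axes) of 8 members (vertical axis) in 6 comparisons; filled red points passed the limma threshold and open points did not. Map3k1 passes in both ligation comparisons and in JNK1-/- liver at 48 h, and Mapk8 passes in JNK1-/- liver at both times.

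Counted over comparisons, most members did not pass in any. In JNK1Δhepa against control at 48 h limma called no member and no gene of the whole array, with 1 member at an unadjusted p under 0.05. The ranges of 4 of 8 members were apart there, Mapk8, Map3k1 and Map3k5 lower and Mapk8ip3 higher, where 9.87% of all genes were apart. At 28 d limma also called no member, with 3 at an unadjusted p under 0.05, where 0.228% of all genes were called. Mapk9 and Map3k7 were apart and higher and Map3k1 apart and lower, 3 of 8, where 13.4% of all genes were apart. In JNK1-/- against control 3 of 8 members were apart at 48 h and 2 at 28 d, where 21.3% and 12.7% of all genes were.

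Ligation left 2 of 8 members apart at each time, where 32.9% of all genes at 48 h and 33.1% at 28 d were. Sham livers of 28 d and the libraries labelled control sham 48 h differed in no called member by limma, with 2 at an unadjusted p under 0.05, where 0.133% of all genes were called. Mapk8 (0.71, adjusted p = 0.344), Map3k5 (-0.39, adjusted p = 0.408) and Map3k7 (-0.06) were apart between the sham groups, where 18% of all genes were. In a fit to the compared groups Mapk8 was called there (adjusted p = 0.0285, and 0.0285 to 0.647 over its alternatives).

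The other genes of the pathway were 80 measured genes in 7 lists, each list chosen by role. The lists were chosen with earlier results of these data known. With ligation at 48 h 16 rose and 1 fell, 21.2% of them, where 9.43% of all genes were called. At 28 d 24 rose and 4 fell, 35% of them, where 23.2% of all genes were called. Against the sham livers of 28 d, 16 rose and 5 fell at 48 h, and 11 of the 16 genes picked by rule at 48 h were still called. The share of all genes called at 48 h against those sham livers is not given here. These counts, and those of single lists below, thus have no background beside them. Without ligated replicate 3 of 48 h, 10 rose and 1 fell, where 1186 of all 18820 genes were called. The counts are a description. Of the genes called and picked by rule, 10 of 16 at 48 h and 14 of 23 at 28 d stayed called whichever 1 array of the compared groups was left out.

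Receptors and adaptors lie at the top of the cascade. Of 12 receptor, adaptor and TAK1 partner genes 2 rose at 48 h and 3 at 28 d, with a median difference of 0.22 and 0.26, where the median of all genes was -0.03 at both times. Tnfrsf1a, the main TNF receptor, rose by 0.63 (SE 0.14) and 0.73 (SE 0.14). Traf2, an adaptor of that receptor, rose by 0.67 at 48 h. Against the sham livers of 28 d 3 of the 12 rose at 48 h, Tnfrsf1a by 0.89 and Traf2 by 0.49 among them. Tlr4, the endotoxin receptor, rose by 0.70 at 28 d, a call lost without ligated replicate 3 or sham replicate 2 or 3 (adjusted p = 0.0106 to 0.132 over its alternatives). Among 9 MAP4 kinases and GTPases Map4k4 rose by 0.87 at 48 h (0.65 against the sham livers of 28 d, adjusted p = 0.0344) and 1.32 at 28 d (SE 0.19), while Tnik fell by 0.69 at 28 d, a call held in 7 of 13 alternatives and lost without ligated replicate 1 or 2 or sham replicate 1 or 3 (highest adjusted p 0.184).

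Of 13 other MAP3 and TAO kinases 2 rose at 48 h, and 3 rose and 1 fell at 28 d, with medians of 0.01 and 0.13. Map3k6, which encodes ASK2, a partner of ASK1, rose by 1.90 at 28 d (SE 0.34, adjusted p = 0.000367). Map3k12, the dual leucine zipper kinase DLK, rose by 0.36 and 0.48 (SE 0.11). Map3k4 fell by 0.44 at 28 d, a call lost without ligated replicate 1 or sham replicate 1 or 3 (adjusted p = 0.00373 to 0.12 over its alternatives). At 48 h Map3k12 was called in 1 of 12 alternatives and Map3k20 in 7 of 13, neither against the sham livers of 28 d (highest adjusted p 0.957 and 0.467). Against those livers 2 of the 13 rose at 48 h. Map3k1 at 1.44 had a larger rise at 48 h than the called genes of this list, Map3k12 and Map3k20 (0.43). At 28 d Map3k6 at 1.90 had a larger rise than Map3k1 at 0.84.

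Scaffolds and inhibitors moved in part. Of 8 scaffold genes Flna, an actin crosslinker that binds MKK4, rose by 1.06 and 1.24 (SE 0.32). Arrb2, an arrestin that binds JNK3, rose by 0.41 at 48 h and Spag9, which encodes the scaffold JIP4, by 0.38 at 28 d. Against the sham livers of 28 d, and without ligated replicate 2 or sham replicate 1 or 2, no scaffold was called at 48 h. At that time Flna was called in 4 of 13 alternatives and Arrb2 in 5 of 13 (highest adjusted p 0.131 and 0.171). Among 10 phosphatases and inhibitors 3 rose at each time: Gadd45b, which binds and blocks MKK7, by 2.42 and 2.88 (SE 0.45), Dusp8 by 1.81 and 1.98 (SE 0.39) and Dusp10 by 0.95 and 0.82 (SE 0.22), both phosphatases of JNK and p38. Dusp10 was not called at 48 h against the sham livers of 28 d (adjusted p = 0.0563) nor at 28 d without sham replicate 1 (0.0549). Against the same sham livers 2 of the 10 rose and 1 fell at 48 h, with Gadd45b at 3.47 and Dusp8 at 1.77. Gstp1, a binding partner of JNK, fell by 0.73 at 28 d.

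Of 16 JNK substrate and AP-1 genes 4 rose and 1 fell at 48 h, and 7 rose and 1 fell at 28 d, with medians of 0.26 and 0.49. Against the sham livers of 28 d, 6 rose and 3 fell at 48 h, with Atf3 at 3.40 and Fos at 1.81. Jun, the substrate for which JNK is named, rose by 2.43 at 48 h (SE 0.28, adjusted p = 3.19e-05) and 0.94 at 28 d. Its rise at 48 h was 1.35 against the sham livers of 28 d (adjusted p = 0.00391). Atf3 rose by 3.53 and 2.16 (SE 0.51) and Fos by 1.74 and 1.70 (SE 0.41). Fos at 48 h was not called without ligated replicate 3 (adjusted p = 0.0615, 0.00246 to 0.0615 over its alternatives). Fosl2 rose by 1.98 at 28 d and was the 1 gene of these lists whose ligation effect differed between the times (interaction 1.58, SE 0.38, adjusted p = 0.0434). That interaction was called in 6 of 18 alternatives, with adjusted p = 0.0108 to 0.119, and not with the replicate block or in 9 of 12 fits that left out 1 array. Itch, a ubiquitin ligase that JNK activates, fell by 0.48 at 48 h, and by 0.37 against the sham livers of 28 d. Of the p38 and ERK kinases, 2 of 12 rose at 48 h and 4 at 28 d, with Mapk7 (ERK5) at 0.77 and 0.85 (SE 0.11). At 48 h 2 rose and 1 fell against the sham livers of 28 d, with Mapk7 at 0.87.

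**Figure D5:**
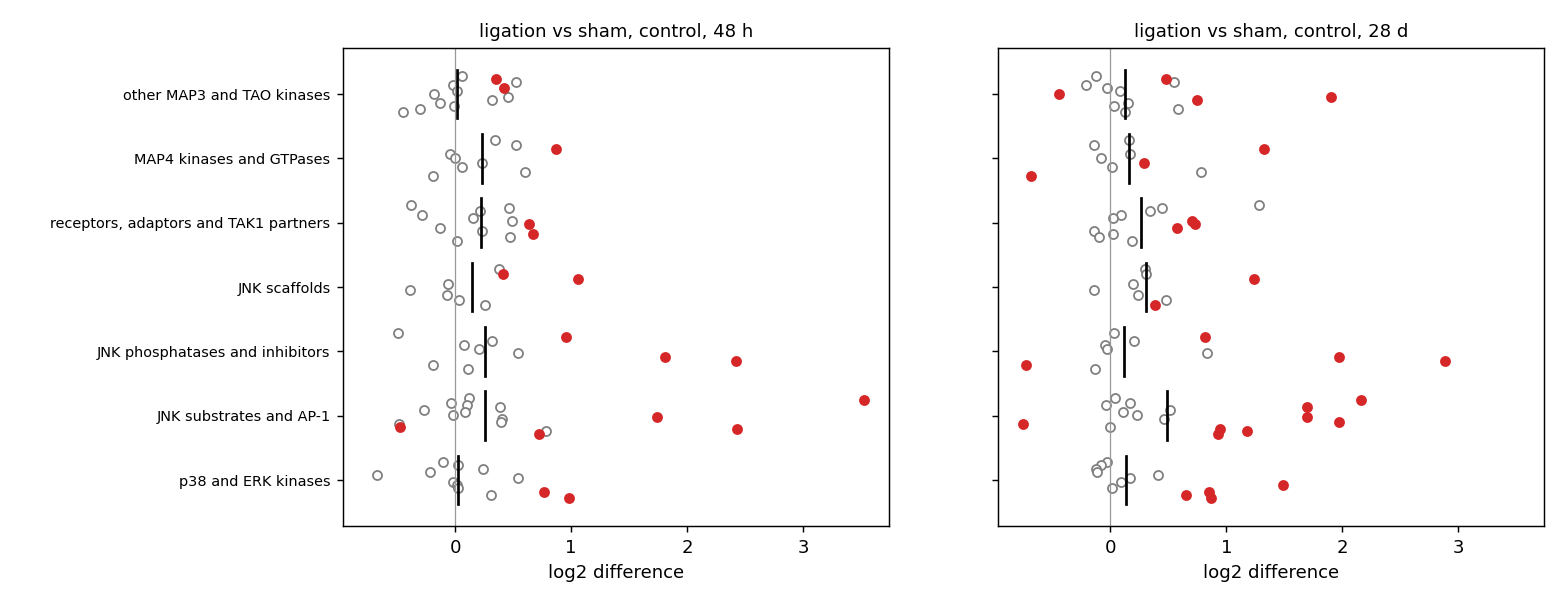
Log2 difference of ligation against sham in control liver (horizontal axes) for each measured gene of 7 pathway lists (vertical axis) at 48 h and 28 d; filled red points passed the limma threshold, open points did not, and the black bar is the median of the list. The medians lie between 0.01 and 0.49.

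Few of these 80 genes were called between genotypes. In JNK1-/- against control 2 were called at 48 h, Bmf, a BH3-only protein of cell death that was higher by 1.13 (SE 0.20, adjusted p = 0.00424), and Mapkapk3, a kinase below p38 that was lower by -1.25 (SE 0.27, adjusted p = 0.0185). That is 2.5% of the genes, where 2.3% of all genes were called. By limma 23 of the 80 had an unadjusted p under 0.05 there. Bmf was called in 12 of 13 alternatives (adjusted p = 0.00255 to 0.0526) and Mapkapk3 in 9 of 13 (0.0122 to 0.0967), not without control replicate 2 or 3 or JNK1-/- replicate 1. At 28 d limma called none of the 80, with 10 at an unadjusted p under 0.05, where 0.627% of all genes were called. In JNK1Δhepa against control limma called none at 48 h, with 3 at an unadjusted p under 0.05, where no gene at all was called. At 28 d it called 1, Map3k12 (-0.54, SE 0.11, adjusted p = 0.0496), 1.25% of the 80 where 0.228% of all genes were called. In that comparison 15 of the 80 had an unadjusted p under 0.05 by limma. The Map3k12 call held in 3 of 12 alternatives (adjusted p = 0.00711 to 0.633) and was lost with the replicate block and without control replicate 3 or any 1 JNK1Δhepa replicate. Jun differed from control by -0.65 in JNK1-/- (adjusted p = 0.270) and 0.05 in JNK1Δhepa liver at 48 h, and by 0.04 and -0.34 at 28 d, with none of these called. Between the mutants 2 of the 80 were called at each time, 2.5%, where 2.44% of all genes were called at 48 h and 0.962% at 28 d. By limma 14 of the 80 at 48 h and 17 at 28 d had an unadjusted p under 0.05. At 48 h Bmf was higher in JNK1-/- than in JNK1Δhepa liver by 1.11, called in 13 of 13 alternatives, and Tnik lower by -0.85 (adjusted p = 0.0354, called in 4 of 12), a call lost without any 1 array of the compared groups. At 28 d Map4k1 was higher by 0.72 (adjusted p = 0.0484, called in 4 of 12) and Tab3 lower by -0.55 (adjusted p = 0.0222, called in 8 of 13). Both calls were lost without JNK1-/- replicate 1 or 3 or JNK1Δhepa replicate 1 or 2, and that of Map4k1 also with the replicate block.

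Over the 24 arrays, the log2 intensity of Map3k1 was most like that of D17H6S56E-5 (Pearson r = 0.93), Atf3 (0.93) and Mybl1 (0.91), among 17985 named genes. For Mapk8 the closest were Mical3 (0.87), Bcl2l13 (0.83) and Flt1 (0.79). For the other members the closest gene reached between 0.75 (Map3k5 with Cln8) and 0.85 (Mapk8ip3 with Zswim8). Among the members themselves the highest was 0.57, between Mapk10 and Map3k5, and Mapk8 with Map3k1 gave 0.01. These arrays share groups, labelling and normalization, and the correlations are a description.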

How the data were processed

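The authors deposited RMA values on a log2 scale, 1 intensity for each probe set, per the submitters' processing notes; the version, settings and probe positions were not stated there. Of 35556 probe sets the platform annotation gave 21218 a single gene symbol, 1881 more than 1 and 12457 no symbol. Symbols were updated through gene numbers on GRCm38.p6 (33 numbers not found), and the brightest probe set by its mean over 24 arrays stood for each of 18820 symbols. No 2 arrays were identical (highest correlation 0.9932).

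Groups were compared with limma 3.58.1 in R 4.3.3, with 1 mean per group over all 24 arrays (16 residual degrees of freedom, prior 3.55), in 15 comparisons. Scripts were tested on simulated data. Members and lists were chosen with earlier results of these data known. All members were named. From each of 7 pathway lists a rule picked up to 3 called genes per direction and comparison with the smallest p. Not every picked gene is given in the text, so a gene left out may still have been called. No pathway gene is given from the comparisons of ligated livers of 28 d with those of 48 h. There 17 of the 80 were called in control, 1 in JNK1-/- and 19 in JNK1Δhepa liver, where 10.4%, 2.84% and 18% of all genes were. Some genes are also given in comparisons where the rule did not pick them. The number of arrays limits the precision. The same-numbered arrays of JNK1Δhepa and control at 28 d deviated together (correlations 0.50, 0.24 and 0.16). Not every array there correlated best with its own number, so this check does not settle whether the replicate numbers pair them. The labels do not say what a number marks, and no other comparison passed the cutoff on these correlations. Alternatives were quantile normalization, median centring, the mean of all probe sets, a filter on dim genes, a fit to the compared groups, a replicate block, the other sham group and leaving out each array.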

Additional observations from a re-analysis of the deposited data

How the results depend on the processing

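Of 212 counts of called members under the alternatives, over 15 comparisons, 191 stayed within 1.5 times the reported count. Each reported count was 0, 1 or 2 of 8 members, so many of the 191 are an unchanged 0 or 1 and say little on stability. The counts that moved were these. With each array centred on its median, 2 members were called for ligation at 28 d and 2 for ligated control liver of 28 d against 48 h, Map3k1 and Map3k7 each time. In a fit to the compared groups only, 2 were called for ligation at 48 h (Map3k1 and Mapk8), 1 between the sham groups (Mapk8), 1 in JNK1-/- against control at 48 h (Mapk8) and 0 at 28 d, and 0 in JNK1-/- against JNK1Δhepa at either time. With the sham arrays of 48 h, 2 were called for ligation at 28 d, and Mapk8 then had a difference of 0.69 in place of -0.02. Leaving out the 3 libraries labelled control sham 48 h, an alternative chosen after seeing the data, left 1 called in JNK1-/- against control at 48 h and 0 in JNK1-/- against JNK1Δhepa at 48 h. Leaving out 1 array gave 1 to 2 members for ligation at 48 h, 1 to 2 at 28 d, 1 to 2 for JNK1-/- at 48 h and 0 to 1 between the mutants at 48 h.

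For single members, 1581 of 1681 values kept their direction and their side of the threshold, 14 lost a call, 7 gained one, 1 was called with the opposite sign (the Mapk8 difference of 0.69 above), and 78 uncalled values changed sign. With the replicate number as a block (replicate block) no member's call changed, and Map3k1 in JNK1Δhepa against control at 28 d stayed at -0.47. Mapk10 could not be fitted with the filter on dim genes. In JNK1Δhepa against control at 28 d, 11 genes of the array were called with the block and 43 without it, and with the block Map3k12 was not called. Leaving out 1 array there gave between 0 called genes and, without control replicate 1, 1985.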
